A study of Homo sapiens with 18 samples.

Results

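The genes described here encode the 8 subunits of the non-specific lethal (NSL) complex other than WDR5 itself: KAT8, KANSL1, KANSL2, KANSL3, MCRS1, PHF20, HCFC1 and OGT. They were chosen by name, as listed subunits of the acetyltransferase complex that contains WDR5, and each matched 1 of the 58815 genes in the counts table. All 8 were among the 12095 genes that passed the filter on low counts, so none of them is missing from the tests below. The RNA came from 3 sublines of MDA-MB-231, an established triple-negative human breast cancer line, selected for spread to the lung (LM2), the brain (BrM3, which some labels call BrM2) or the bone (BoM). Each subline carried a doxycycline (DOX) inducible short hairpin RNA, either a control hairpin (shCtrl) or 1 hairpin against WDR5 (shWDR5-1, called shWDR5 here), and both arms received DOX at 1 μg/mL for 3 days. There were 3 libraries per line and hairpin and 18 in all, with replicates taken at different passages. With 1 WDR5 hairpin sequenced, an effect of the hairpin sequence other than WDR5 loss cannot be told apart from the knockdown in these libraries.

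The NSL complex is a nuclear assembly that binds mainly at the promoters of widely expressed genes and acetylates histone H4 through KAT8 (MOF), a MYST family acetyltransferase that also works in the separate MSL complex. KANSL1 is its scaffold and brings KAT8 to the rest of the complex. KANSL1 and KANSL2 each hold a peptide that docks on WDR5, at opposite faces of its propeller, and the KANSL2 face is the one that RBBP5 uses in the KMT2 methyltransferase complexes. KANSL3 has an α/β-hydrolase fold, MCRS1 has a forkhead-associated domain and also acts at spindle microtubules, and PHF20 carries Tudor and PHD domains that read lysine methylation. HCFC1 (HCF-1) is a cell cycle coactivator that several chromatin complexes share, and OGT is the only enzyme that attaches O-linked N-acetylglucosamine to nuclear and cytosolic proteins and also cleaves HCFC1.

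The members do not form a gene cluster. KAT8 lies on chromosome 16, KANSL1 on 17, KANSL3 on 2 and PHF20 on 20, while HCFC1 and OGT are on the X chromosome and KANSL2 and MCRS1 are on chromosome 12. KANSL2 (ENSG00000139620, chr12:48653211-48682238, minus strand, GRCh38) and MCRS1 (ENSG00000187778, chr12:49556544-49568145, minus strand) are separated by 874 kb. OGT (ENSG00000147162) spans chrX:71533087-71575892 on the plus strand. RefSeq promoter windows of GRCh38.p14, running from 250 bases before to 50 bases after a transcription start, were matched by symbol for 6 of the 8 members, all but KAT8 and HCFC1. The 3 windows below belong to KANSL2 and MCRS1, called higher with shWDR5 in the average over lines, and to OGT, which had the widest range of levels over lines and hairpins. Capitals mark the motif matches. The KANSL2 window is chr12:48682189-48682488 and the MCRS1 window is chr12:49566390-49566689, both on the minus strand, and the OGT window is chrX:71532854-71533153 on the plus strand.
KANSL2: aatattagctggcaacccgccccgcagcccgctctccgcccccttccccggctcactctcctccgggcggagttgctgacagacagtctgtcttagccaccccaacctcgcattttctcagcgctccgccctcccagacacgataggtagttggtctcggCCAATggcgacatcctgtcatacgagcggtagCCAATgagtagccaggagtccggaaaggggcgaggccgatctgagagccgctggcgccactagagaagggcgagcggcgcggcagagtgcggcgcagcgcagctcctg
MCRS1: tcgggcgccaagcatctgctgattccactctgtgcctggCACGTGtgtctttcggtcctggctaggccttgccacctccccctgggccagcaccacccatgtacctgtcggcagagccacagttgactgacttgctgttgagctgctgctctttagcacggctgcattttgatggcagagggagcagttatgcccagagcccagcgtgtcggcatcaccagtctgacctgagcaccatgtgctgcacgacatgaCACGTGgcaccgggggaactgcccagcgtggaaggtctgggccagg
OGT: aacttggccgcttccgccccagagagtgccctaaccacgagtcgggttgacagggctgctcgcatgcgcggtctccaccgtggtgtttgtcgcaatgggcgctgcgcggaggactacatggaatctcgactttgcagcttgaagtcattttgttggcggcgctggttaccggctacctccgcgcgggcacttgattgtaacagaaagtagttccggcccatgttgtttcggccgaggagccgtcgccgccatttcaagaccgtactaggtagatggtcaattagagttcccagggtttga

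4 motifs were searched on both strands of these windows: the E-box CACGTG that MYC and its partners bind, the SBS motif of ZNF143 and THAP11, through which HCFC1 is often recruited, the CCAAT box CCAAT of NF-Y, and the ETS core CCGGAAG. KANSL2 held 2 CCAAT boxes, 90 and 58 bases before the start (offsets -90 and -58). MCRS1 held 2 E-boxes, at offsets -211 and 4, the second just after the start of that window. The MCRS1 window lies wholly inside the annotated gene, whose 5' end is at 49568145, so its start is an internal one. The windows of the members that rose with shWDR5 shared none of the 4 motifs. The OGT window held none of them. PHF20 held 1 E-box. KANSL3 and KANSL1 each had more than 1 annotated start. KANSL3 held 1 ETS core in a single window, and KANSL1 held 1 SBS match in 1 window and 1 E-box in another. Among 35116 promoter windows of the same length, 7.26% held the E-box, 0.78% SBS, 34.6% CCAAT and 10.3% CCGGAAG. The matches printed above do not overlap each other, and a match is a description of the letters, not of binding.

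The libraries held 17485841 to 119667013 counted reads (median 37861544), and each member had from 267 to 24529 reads in a library. WDR5 fell with the hairpin in each line. Its level in CPM, the count per library size after scaling by the trimmed mean of M values (TMM), was 113, 128 and 134 in the LM2 shCtrl libraries and 24.3, 24.4 and 20.5 with shWDR5. In BrM3 it was 85.5, 93.3 and 79.4 against 20.8, 21.3 and 23.5, and in BoM 87.5, 90.5 and 90.4 against 14.0, 21.1 and 22.1. The log2 fold change (log2FC) was -2.43 for LM2, -1.97 for BrM3 and -2.24 for BoM (SE 0.14 each), with 95% intervals of -2.73 to -2.14, -2.27 to -1.68 and -2.53 to -1.94. The cells had the markers of a mesenchymal-like breast line: VIM and CD44 summed to 2020 to 2822 CPM and the epithelial list, mostly KRT8 and KRT18, to 563 to 924 CPM, with KRT19 highest in BoM shCtrl cells at 127 ± 37.7 CPM (SD, n = 3). CDH1, ESR1 and PGR were at or under 0.715 CPM in every library, while ERBB2, the receptor HER2, was present at 41.5 to 83.4 CPM. The immune markers PTPRC, CD3E and CD68 summed to at most 1.11 CPM and the endothelial markers PECAM1 and CDH5 to at most 4.73 CPM. COL1A1 and PDGFRB together stood at 38.7 to 92.2 CPM in LM2 shCtrl libraries and 32.8 to 52.5 with shWDR5, which overlapped, at 9.34 to 11.9 CPM in BrM3 shCtrl libraries and 3.65 to 5.85 with shWDR5, and at 12.9 to 18.3 and 6.67 to 7.47 CPM in BoM, and the part of this shift in the member results was not tested.

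Per kilobase of transcript, the subunits were expressed at unequal levels, with OGT and MCRS1 on top and KANSL1 at the bottom. In LM2 shCtrl cells MCRS1 stood at 44.6 ± 4.49 CPM per kb (SD, n = 3), OGT at 41.1 ± 3.98 and WDR5 at 39.6 ± 3.52, and neighbours in this order overlapped. PHF20 (19.1 ± 1.46), KANSL3 (19.0 ± 0.802) and KANSL2 (17.9 ± 1.58) followed without separation from each other, and then HCFC1 (14.9 ± 3.29) and KAT8 (13.7 ± 0.621), whose ranges also overlapped. KANSL1, the scaffold, was lowest at 8.39 ± 1.04 CPM per kb, apart from KAT8.

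The order differed in the other lines. In BrM3 shCtrl cells OGT was at 64.0 ± 4.19 CPM per kb, apart from MCRS1 at 36.3 ± 2.81, which was apart from WDR5 at 27.3 ± 2.20. In BoM shCtrl cells these levels were 57.9 ± 1.49, 40.7 ± 4.88 and 28.3 ± 0.543 CPM per kb, again with no overlap of neighbours. WDR5 came next after MCRS1 and OGT in each shCtrl group. With shWDR5 it dropped to 7.31 ± 0.711 CPM per kb in LM2, 6.92 ± 0.450 in BrM3 and 6.03 ± 1.39 in BoM, lowest or level with KANSL1. All 8 subunits therefore had a higher mean level per kb than WDR5 in the shWDR5 cells of LM2 and BoM, and 7 of 8 did in BrM3, where KANSL1 was at 6.64 ± 0.509.

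**Figure D1:**
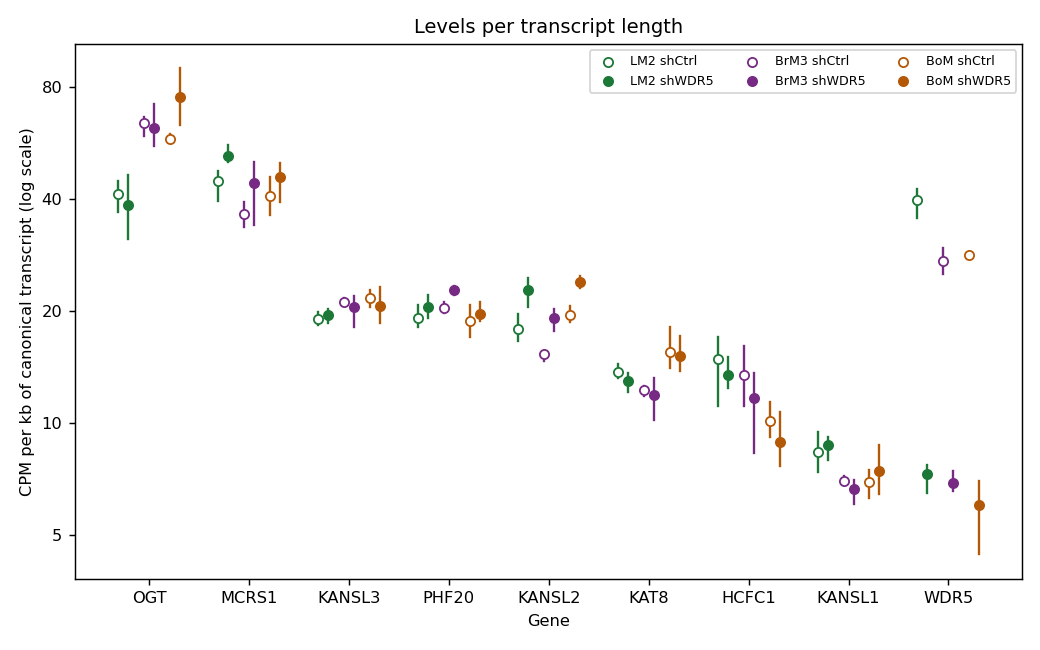
Level of each NSL subunit and WDR5 in CPM per kb of the canonical transcript (log scale). Points are means of 3 libraries, lines span the lowest to the highest library, open points are shCtrl and filled points shWDR5; WDR5 falls from 27.3 to 39.6 down to 6.03 to 7.31, while no subunit moves comparably.

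With WDR5 knocked down, KANSL2 rose in all 3 lines, and no subunit was called lower. The KANSL2 log2FC was 0.34 (1.27-fold) with LM2, 0.32 (1.25-fold) with BrM3 and 0.29 (1.22-fold) with BoM. Averaged over the lines, KANSL2 and MCRS1 rose, and the other 6 members did not pass the test. The count was therefore 1 of 8 members in each line, where 6.25% (LM2), 10.8% (BrM3) and 16.1% (BoM) of all tested genes were called in either direction, and 2 of 8 in the average, where 35.5% were called in either direction and 15.6% were called higher. These shares are near the background, so the count of members is no result about the complex as a group. The median log2FC of the 8 members was 0.05 for LM2, -0.04 for BrM3 and 0.08 for BoM, beside -0.001, -0.005 and 0.015 for all genes tested. The median size of the change, whatever its sign, was 0.10, 0.11 and 0.13 for the members and 0.14, 0.16 and 0.19 for all genes. For members called lower, the count was 0 in each line and in the average. Of all genes, 4.77%, 7.92% and 10.7% were called lower in LM2, BrM3 and BoM and 19.9% in the average. With 8 genes beside these shares, a count of 0 is no result about the complex either. DESeq2 also called 0 members lower, beside 733, 1136 and 1394 of 12092 genes in the lines and 2393 in the average. At an unadjusted p under 0.05, 1, 1 and 2 of 8 members passed in LM2, BrM3 and BoM and 2 in the average, and 0 of these were lower. Over all genes, that cut was counted in both directions together only. In either direction, 2432, 3018 and 3659 of 12095 genes passed that cut in the lines and 5423 in the average. Among the alternatives, the fit with a replicate block called 1 member lower, HCFC1 in the average (-0.18, adjusted p = 0.034).

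**Figure D2:**
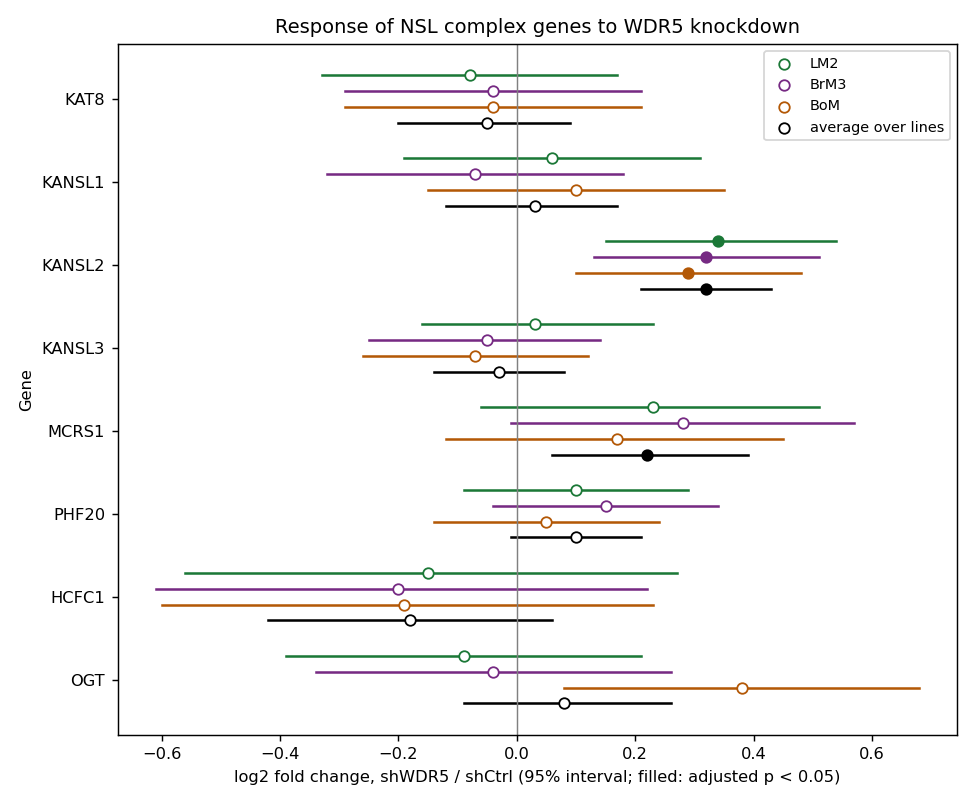
log2FC of shWDR5 over shCtrl (x axis) for each NSL subunit (y axis) in LM2, BrM3, BoM and their average, with 95% intervals from the edgeR fit; filled points have an adjusted p under 0.05. KANSL2 is filled in all 4 comparisons (0.29 to 0.34), MCRS1 in the average alone (0.22), and all other intervals but that of OGT in BoM include 0.

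For KAT8, the catalytic subunit, the log2FC was -0.08 in LM2 (95% interval -0.33 to 0.17), -0.04 in BrM3 (-0.29 to 0.21) and -0.04 in BoM (-0.29 to 0.21), and -0.05 in the average (-0.20 to 0.09, adjusted p = 0.57). Its level was 15.2 to 27.0 CPM over the 18 libraries. The lowest of these, BrM3 shWDR5 replicate 1, was the shallowest library, with 267 KAT8 reads. The shCtrl and shWDR5 libraries overlapped in each line.

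KANSL1, the scaffold with 1 of the peptides that dock on WDR5, had a log2FC of 0.06 for LM2, -0.07 for BrM3 and 0.10 for BoM, and of 0.03 in the average (95% interval -0.12 to 0.17, adjusted p = 0.77). BoM shWDR5 replicate 1 stood at 48.6 CPM, above 39.5 and 35.9 in the other 2 BoM shWDR5 libraries. KANSL1 reads carry some ambiguity, since 2.05% of its transcripts' 50-base words also occur in transcripts of other genes on the same strand. Its exons also share 304 and 136 bases with 2 antisense noncoding genes. This is not particular to KANSL1: the same-strand share was 2.22% for KAT8 and 1.32% for KANSL3. Exons of KANSL3 and MCRS1 share 45 and 43 bases with the opposite-strand coding genes FER1L5 and KCNH3, though no 50-base word of MCRS1 was shared. The library kit marks strand, but how the counting used it is not given in the sources used here.

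KANSL2, which holds the other WDR5-docking peptide, was higher in every shWDR5 library than in any shCtrl library of its line. In LM2 it stood at 46.6, 39.3 and 41.3 CPM in the shCtrl libraries and at 58.1, 54.6 and 48.6 with shWDR5. In BrM3 it stood at 37.1, 35.0 and 37.0 CPM against 42.0, 48.2 and 46.0. In BoM it stood at 45.6, 44.5 and 48.9 CPM against 54.8, 56.3 and 58.7. The groups came closest in LM2, between shCtrl replicate 1 and shWDR5 replicate 3, and the BrM3 shWDR5 libraries overlapped the LM2 shCtrl libraries.

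The KANSL2 log2FC had a 95% interval of 0.15 to 0.54 in LM2 (SE 0.09, adjusted p = 0.03), 0.13 to 0.51 in BrM3 (SE 0.09, adjusted p = 0.03) and 0.10 to 0.48 in BoM (SE 0.09, adjusted p = 0.039). Averaged over the lines it was 0.32 (SE 0.05, 95% interval 0.21 to 0.43, adjusted p = 0.00017). KANSL2 was 1 of 91 genes called higher in each of the 3 lines, which is 0.752% of the genes tested, and 83 of these had a larger average log2FC. The response did not differ detectably between lines: the differences were -0.02 (95% interval -0.29 to 0.25) for BrM3 minus LM2, -0.06 (-0.33 to 0.22) for BoM minus LM2 and -0.03 (-0.30 to 0.24) for BoM minus BrM3.

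The call in a single line was close to the threshold. It was lost in LM2 without shCtrl replicate 2 or 3 or shWDR5 replicate 1 or 2, in BrM3 without any 1 shCtrl library or shWDR5 replicate 2 or 3, and in BoM without shCtrl replicate 1 or 2, shWDR5 replicate 2 or 3, LM2 shWDR5 replicate 2 or BrM3 shCtrl replicate 1 or 3. Leaving out 1 library at a time, the adjusted p reached 0.16, 0.13 and 0.13 for LM2, BrM3 and BoM, while the log2FC stayed at 0.29 to 0.42, 0.28 to 0.37 and 0.26 to 0.33. Without the filter on low counts, which tests 41236 genes, the adjusted p was 0.16, 0.11 and 0.21. In the average over lines all 18 such fits kept the call, with a log2FC of 0.30 to 0.34 and an adjusted p of at most 0.00063.

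**Figure D3:**
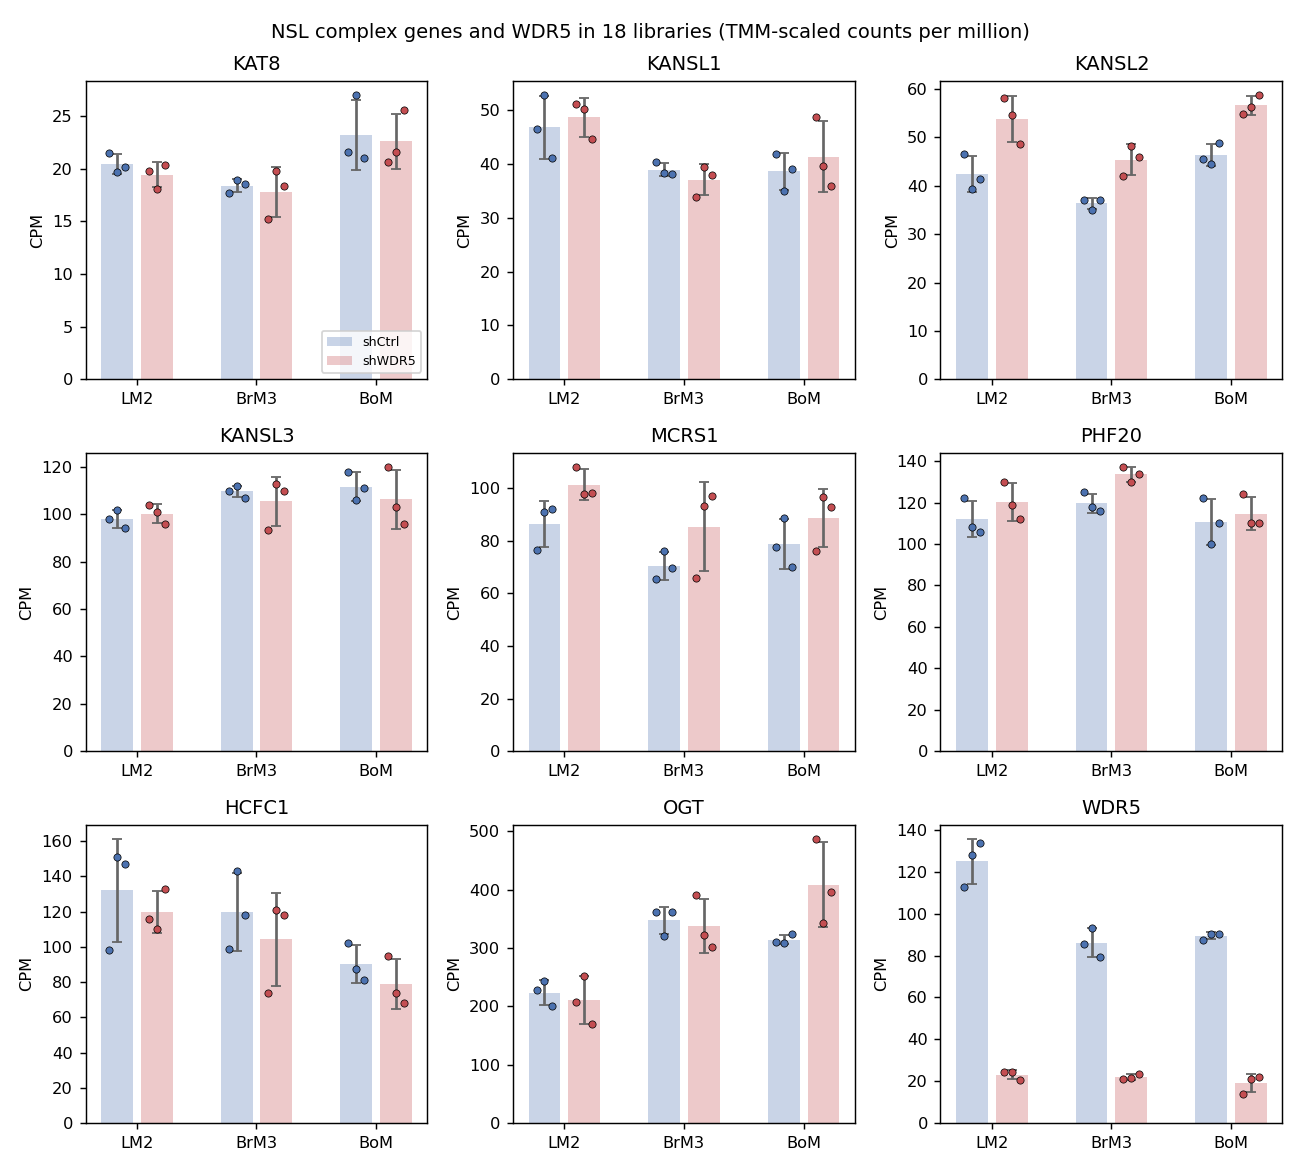
TMM-scaled CPM (y axis, from 0) of the 8 NSL subunits and WDR5 in each library, by line (x axis). Points are libraries in the order of replicates 1 to 3, bars are means and error bars SD of 3 libraries; the KANSL2 points of shWDR5 (red) lie above those of shCtrl (blue) in each line, from 42.0 against 37.1 CPM in BrM3 at the closest shWDR5 and shCtrl libraries there.

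KANSL2 counts had no detectable share from other genes. None of the gene's 50-base words occurred in transcripts of another gene. Its introns host the small nucleolar RNAs SNORA2A, SNORA2B and SNORA2C and the microRNA MIR1291, which held 64, 33, 37 and 2 reads in all 18 libraries together, and no exon base was shared with them. Of 13 tested genes within 500 kb of KANSL2, 1 rose and 5 fell in the average over lines, with a median log2FC of -0.08. Of the 16 tested genes between KANSL2 and MCRS1, 2 rose and 5 fell, with a median of -0.01. Among all genes tested, 15.6% were called higher and 19.9% lower in the average. A part of the genome position in the KANSL2 rise was not tested.

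MCRS1 rose in the average over lines by a log2FC of 0.22 (SE 0.08, 95% interval 0.06 to 0.39, adjusted p = 0.036), a 1.17-fold difference. Its level was 76.4, 90.8 and 92.2 CPM in LM2 shCtrl libraries and 108, 97.6 and 98.1 with shWDR5, so the groups did not overlap there. In BrM3 it was 65.4, 76.1 and 69.6 CPM against 65.9, 93.1 and 97.0, and shWDR5 replicate 1 lay among the shCtrl libraries. In BoM it was 77.7, 88.8 and 70.0 CPM against 76.0, 96.7 and 92.9, and again shWDR5 replicate 1 lay within the shCtrl range. Within the lines the log2FC was 0.23 (95% interval -0.06 to 0.51) in LM2, 0.28 (-0.01 to 0.57) in BrM3 and 0.17 (-0.12 to 0.45) in BoM, and none passed the test (adjusted p = 0.39, 0.21 and 0.45).

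The MCRS1 call was close to the threshold too. It was lost in 10 of the 18 leave-one-out fits, those without LM2 shCtrl 1, LM2 shWDR5 1, BrM3 shCtrl 1 or 3, BrM3 shWDR5 2 or 3, BoM shCtrl 1 or 3, or BoM shWDR5 2 or 3, where the log2FC was 0.19 to 0.23 and the adjusted p 0.053 to 0.08. Without BrM3 shWDR5 replicate 1, the shallowest library, the BrM3 log2FC was 0.43 and passed the test (adjusted p = 0.029). With a correction for GC content, MCRS1, whose transcripts have 58.0% GC, passed in each line, with a log2FC of 0.29 for LM2, 0.41 for BrM3 and 0.35 for BoM (adjusted p = 0.034, 0.0039 and 0.0085).

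KANSL3, the hydrolase-fold subunit, had a log2FC of 0.03, -0.05 and -0.07 in LM2, BrM3 and BoM and -0.03 in the average (95% interval -0.14 to 0.08, adjusted p = 0.68). Over the 18 libraries it held 93.5 to 120 CPM, the narrowest range of group means among the members (0.182 on the log2 scale). PHF20, the methyl-lysine reader, stood at 125, 118 and 116 CPM in BrM3 shCtrl libraries and at 137, 130 and 134 with shWDR5, without overlap. Its log2FC was 0.15 in BrM3 (95% interval -0.04 to 0.34, adjusted p = 0.31), 0.10 in LM2 and 0.05 in BoM, and 0.10 in the average (95% interval -0.01 to 0.21, adjusted p = 0.13). In the average, 1 of 18 leave-one-out fits passed, that without BoM shCtrl replicate 1 (0.14, adjusted p = 0.043), and the adjusted p reached 0.25. With the GC correction the average was 0.13 (adjusted p = 0.0079) and BrM3 was at 0.19 (adjusted p = 0.046). Of all genes, 51.3% and 24.4% were called in these 2 comparisons with that correction. The average passed in 3 of 9 alternatives, and with total-count scaling it was 0.01 and did not pass.

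Members whose 3 shWDR5 libraries all lay above the 3 shCtrl libraries numbered 2 of 8 in each line: KANSL2 and MCRS1 in LM2, KANSL2 and PHF20 in BrM3, and KANSL2 and OGT in BoM. Among all genes tested this held for 10.7% (LM2), 15.8% (BrM3) and 12.9% (BoM). For members with all shWDR5 libraries below the shCtrl libraries the count was 0 of 8 in each line, where 14.6% (LM2), 19.7% (BrM3) and 17.3% (BoM) of all genes had this order.

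HCFC1, the coactivator, had the widest spread between replicates. In LM2 shCtrl libraries it stood at 98.5, 151 and 147 CPM, and with shWDR5 at 116, 110 and 133. In BrM3 it stood at 98.6, 143 and 118 against 73.9, 121 and 118 CPM, and in BoM at 102, 87.3 and 81.4 against 94.9, 74.0 and 68.1. The groups overlapped in each line. The log2FC was -0.15 for LM2, -0.20 for BrM3 and -0.19 for BoM, with a SE of 0.20 each, and -0.18 in the average (95% interval -0.42 to 0.06, adjusted p = 0.24). With the replicate block the average was also -0.18 and was called lower (adjusted p = 0.034), where 46.9% of all genes were called. HCFC1 transcripts had the highest GC content of the members, 61.5%, and with the GC correction the log2FC was -0.06, -0.02 and 0.04 in the 3 lines. With the GC correction and replicate block the average was -0.02 (adjusted p = 0.7).

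OGT, the glycosyltransferase, had all 3 BoM shWDR5 libraries above the shCtrl libraries, and its groups overlapped in the other lines. In BoM it stood at 310, 309 and 324 CPM in shCtrl libraries and at 487, 342 and 396 with shWDR5. In LM2 it stood at 227, 243 and 200 CPM against 208, 252 and 170, and in BrM3 at 361, 321 and 361 against 390, 322 and 301. The BoM log2FC of 0.38 (95% interval 0.08 to 0.68) did not pass the test over all genes (adjusted p = 0.083), and that in LM2 was -0.09 and in BrM3 -0.04. With DESeq2 the BoM value was 0.40 (adjusted p = 0.044) and with the GC correction 0.34 (adjusted p = 0.034). It passed in 5 of 10 alternatives, which gave 0.23 to 0.40 with an adjusted p of up to 0.43. Only 1 of 18 leave-one-out fits passed, that without BoM shWDR5 replicate 2 (0.49, adjusted p = 0.043). The 18 fits gave 0.23 to 0.49 with an adjusted p of up to 0.3.

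The OGT response itself was not shown to differ between lines. The difference BoM minus LM2 was 0.47 (SE 0.20, 95% interval 0.04 to 0.89, adjusted p = 0.89) and BoM minus BrM3 was 0.42 (SE 0.20, adjusted p = 1.00). For members with a different response between 2 lines the count was 0 in each of the 3 pairs, by edgeR and by DESeq2, where 0.00827% of all genes were called for BrM3 minus LM2, 0% for BoM minus LM2 and 0.00827% for BoM minus BrM3. At an unadjusted p under 0.05 the count was 1, OGT for BoM minus LM2, where 5.18% of all genes passed.

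The direction of small changes depended on scaling. TMM factors were 0.994 to 1.05 in shCtrl and 0.935 to 1.01 in shWDR5 libraries, and scaling by total counts alone, chosen after seeing the data, moved the median log2FC of all genes to -0.08 for LM2, -0.10 for BrM3 and -0.08 for BoM. Of the genes called in either direction, 23.7%, 26.7% and 33.6% were higher in LM2, BrM3 and BoM with TMM, against 9.39%, 8.5% and 12.0% with total counts, and in the average 44% against 17.7%. With the GC correction these shares were 50.3%, 56.2%, 55.1% and 60.7%, and the median log2FC of all genes was 0.04, 0.06, 0.06 and 0.05. KANSL2 kept its direction under total counts, at 0.27, 0.22 and 0.19, but passed the test only in the average (0.23), and MCRS1 was at 0.13 in the average and did not pass (adjusted p = 0.18). Relative to the median of all genes under that scaling, KANSL2 was at 0.35, 0.33 and 0.27 and MCRS1 at 0.23, 0.28 and 0.15 in LM2, BrM3 and BoM. The 18 libraries hold 0 rows for the spike-in RNA that was added per cell. From these counts, the level per cell therefore cannot be told apart from the level relative to other RNA. The paper, which scaled with the spike-in, reports that global RNA levels were unchanged once shWDR5-1 was induced.

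The second set of comparisons asked where the subunits differed between the lines themselves, in the shCtrl libraries. OGT was higher in both BrM3 and BoM than in LM2, HCFC1 was lower in BoM than in LM2, and KAT8 and KANSL2 were higher in BoM than in BrM3. These 3 comparisons share their control libraries pairwise. Of the 8 members, 1 was called in BrM3 against LM2, where 47.6% of all genes were called, 2 in BoM against LM2, where 51.8% were, and 2 in BoM against BrM3, where 37.7% were. The members' counts lie below these shares, but with 8 genes and no test of the group they are no result about the complex. The median size of the members' differences was 0.19, 0.18 and 0.16 on the log2 scale, beside 0.33, 0.36 and 0.27 for all genes tested.

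**Figure D4:**
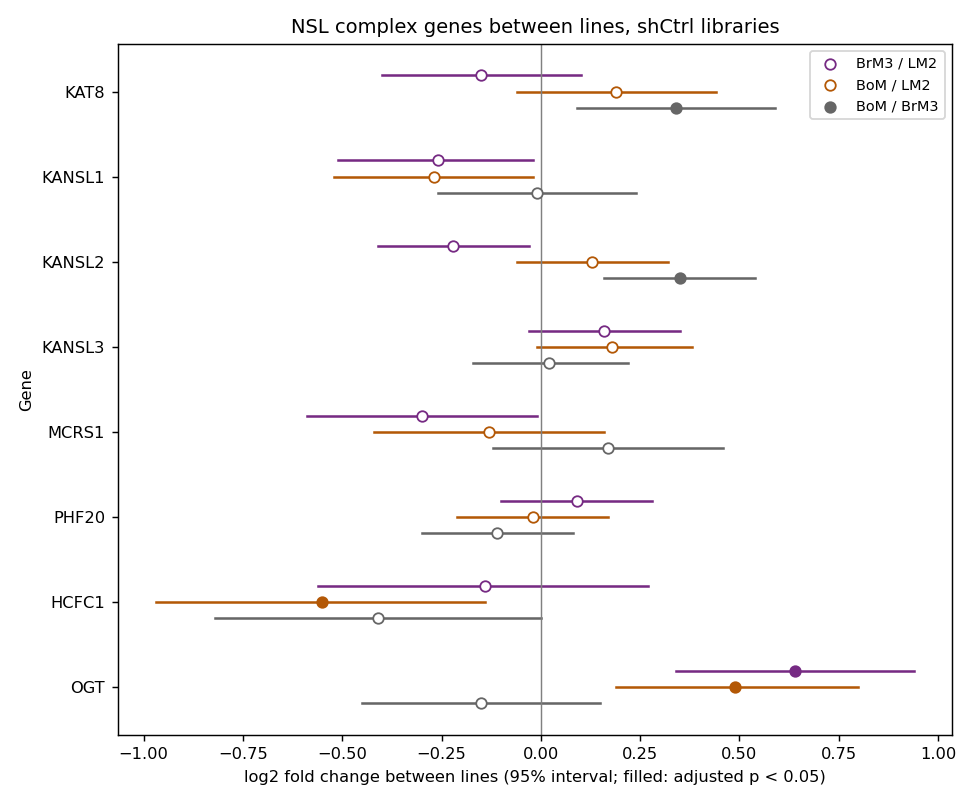
log2FC between the shCtrl libraries of pairs of lines (x axis) for each NSL subunit (y axis), with 95% intervals; filled points have an adjusted p under 0.05. OGT lies to the right in BrM3 and BoM against LM2 (0.64 and 0.49), HCFC1 to the left in BoM against LM2 (-0.55), and KAT8 and KANSL2 to the right in BoM against BrM3 (0.34 and 0.35).

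OGT was 1.56-fold higher in BrM3 than in LM2 (log2FC 0.64, SE 0.14, 95% interval 0.34 to 0.94, adjusted p = 0.0014) and 1.41-fold higher in BoM (0.49, SE 0.14, 0.19 to 0.80, adjusted p = 0.0079). All 6 BrM3 and BoM shCtrl libraries, at 309 to 361 CPM, lay above the 3 of LM2, at 200 to 243 CPM. BoM and BrM3 did not differ beyond their spread (-0.15, 95% interval -0.45 to 0.15, adjusted p = 0.44). Both calls held in all 18 leave-one-out fits, at 0.57 to 0.70 and 0.42 to 0.56, and in all 8 other alternatives, and with the GC correction the differences were 0.58 and 0.42.

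HCFC1, the substrate of OGT, was lower in BoM than in LM2 (log2FC -0.55, SE 0.20, 95% interval -0.97 to -0.14, adjusted p = 0.025). LM2 shCtrl replicate 1, at 98.5 CPM, lay among the BoM shCtrl libraries at 81.4 to 102, while the other LM2 libraries were at 151 and 147. The call was lost without LM2 shCtrl replicate 2 or 3 (adjusted p = 0.11 and 0.087) or BoM shCtrl replicate 2 or 3 (0.066 and 0.091), and with the GC correction the difference was -0.23 (adjusted p = 0.19). HCFC1 in BoM against BrM3 was -0.41 (95% interval -0.82 to 0.00, adjusted p = 0.11).

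KANSL2 was 1.27-fold higher in BoM than in BrM3 (log2FC 0.35, SE 0.09, 95% interval 0.16 to 0.54, adjusted p = 0.0062), with all 3 BoM shCtrl libraries above the 3 of BrM3, and this held in all 18 leave-one-out fits but not without the filter on low counts (adjusted p = 0.1). KAT8 was 1.26-fold higher in BoM than in BrM3 (0.34, SE 0.12, adjusted p = 0.034). BoM shCtrl replicate 2 was highest at 27.0 CPM, and the call was lost without it (0.21, adjusted p = 0.18) and without BrM3 shCtrl replicate 1, 2 or 3 (adjusted p = 0.097, 0.066 and 0.072). Against LM2, KANSL1 was at -0.26 in BrM3 and -0.27 in BoM (adjusted p = 0.075 and 0.063) and MCRS1 at -0.30 in BrM3 (adjusted p = 0.082), none of them past the threshold in the main fit. KANSL1 passed in 2 (BrM3) and 3 (BoM) of 8 alternatives, and MCRS1 in 2. KANSL2 in BrM3 against LM2 was not called in the main fit either. It passed in 5 of 8 alternatives, which gave -0.26 to -0.19, and in 4 of 18 leave-one-out fits. WDR5 itself was lower in BrM3 (-0.54, adjusted p = 0.0028) and BoM (-0.48, adjusted p = 0.0055) than in LM2.

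Among the members, OGT had the widest range of group means over the 6 line and hairpin groups, 0.965 on the log2 scale, followed by HCFC1 with 0.730 and KANSL2 with 0.639. The genes whose 6 group means, each centred on its own mean, lay closest to those of OGT were NDUFAF4, a complex I assembly factor, with a root mean square difference of 0.064 on the log2 scale, ORMDL1, a regulator of sphingolipid synthesis, with 0.071, and LTB4R2, a leukotriene receptor, with 0.072. NDUFAF4 ran from -0.538 in LM2 shWDR5 to 0.374 in BoM shWDR5, the lowest and the highest of its 6 groups. This likeness rests on 6 groups that share libraries with the comparisons above and is a description.

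The lists of paralogous and partner genes are read against the same shares of all genes, 6.25%, 10.8% and 16.1% called in LM2, BrM3 and BoM and 15.6% called higher in the average. The MSL complex and NSL paralog list (MSL1, MSL2, MSL3, KANSL1L and PHF20L1) had 0 of 5 called in any line and 1 of 5 higher in the average, MSL2, the ubiquitin ligase of the MSL complex (0.19, SE 0.07, adjusted p = 0.04). PHF20L1 was at -0.16 (adjusted p = 0.1) and MSL1 at 0.08 (adjusted p = 0.32) in the average. The median log2FC of the list in the average was 0.08, beside 0.003 for all genes.

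Of 9 other histone acetyltransferases, 0 passed in any line and 2 rose in the average: KAT7 (HBO1), a MYST family relative of KAT8, by 0.20 (SE 0.05, adjusted p = 0.0078), and KAT2B (PCAF) by 0.16 (SE 0.06, adjusted p = 0.037). KAT5 (TIP60), also a MYST enzyme, was at 0.20 (SE 0.09, adjusted p = 0.095). The list's median was 0.16. Of 8 HCFC1 partners, 0 passed in any line and 1 rose in the average, ZNF143, which binds the SBS motif (0.18, SE 0.06, adjusted p = 0.019). THAP11 was at -0.10 (adjusted p = 0.24) and ASXL1 at 0.07 (adjusted p = 0.35), and the list's median was 0.03.

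In the O-GlcNAc and hexosamine list, which surrounds OGT, 3 of 6 genes rose in the average and none fell, with a median log2FC of 0.21. OGA, the enzyme that removes O-GlcNAc, rose by 0.22 (SE 0.05, adjusted p = 0.0027). UAP1, which makes the sugar donor UDP-N-acetylglucosamine, rose by 0.24 (SE 0.06, adjusted p = 0.0055), and GNPNAT1, an acetyltransferase of the same pathway, by 0.25 (SE 0.07, adjusted p = 0.0078). Within lines the list had 0 of 6 called in LM2, 1 higher in BrM3 (GNPNAT1), and in BoM 1 higher (OGA) and 1 lower (GFPT2). Beside the 15.6% of all genes called higher in the average, 3 of 6 is a small count, and the list was not tested as a group.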

How the data were processed

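The authors aligned paired-end reads from a strand-marking mRNA kit to hg38 with STAR 2.7.0 (the submitters' notes also list CASAVA 1.8.2 and DESeq2) and deposited raw counts per gene for 18 libraries. The counter and its strand setting are not given in the sources used here. The deposited log2 fold changes and adjusted p-values are the authors' own comparisons and were not used. 0 per-sample columns were left unused. Lines, hairpins and replicate numbers come from the sample titles. The 9 control columns of the counts table carry the code ad in place of a hairpin name and were assigned to shCtrl as the only hairpin in the titles other than shWDR5, for each line and replicate number. For 12 of 18 samples the source label names another line than the title and the cell line label.

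Genes were kept where the highest normalized count exceeded 145.1, the threshold at which the replicates' Jaccard index peaked (0.970) when the criterion of HTSFilter, named in the study's Methods, was recomputed over 100 thresholds. This left 12095 genes. After TMM scaling, 1 quasi-likelihood model of edgeR 4.0.16 (R 4.3.3) covered the 6 groups, with 12 residual degrees of freedom. P-values were adjusted by Benjamini and Hochberg over all genes tested, and an adjusted p under 0.05 is a call. Standard errors and 95% intervals come from the test's F statistic. The fits were tested on simulated counts. DESeq2 1.42.0, other filters and scalings, a GC correction, a replicate block and fits without 1 library were run as alternatives.

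Levels are TMM-scaled CPM, also per kb of the Ensembl canonical transcript (GENCODE v44, GRCh38). Promoter sequences are from RefSeq. Replicates are passages of a line, and p-values measure the spread between them. No 2 libraries of a group agreed within sampling noise (chi-square per gene 5.14 to 90.5). The members, gene lists and tests were chosen with earlier results of these data known. Named genes are all members, WDR5, up to 3 genes of each other list with the smallest p in the average over lines, and the 3 genes most like the member with the widest range.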

Additional observations from a re-analysis of the deposited data

How the results depend on the processing

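The WDR5 knockdown passed the test in each line under every alternative and leave-one-out fit, which gave 84 values over the lines. The KANSL2 rise kept its direction in each fit, and in the average over lines it passed in all 9 alternatives (0.23 to 0.37) and all 18 leave-one-out fits. Without the filter, 0 members were called in LM2, 0 in BrM3 and, for BoM against BrM3 in shCtrl, 1. With own libraries only, 0 were called in LM2, 0 in BoM and 2 for BrM3 against LM2 in shCtrl. With total-count scaling, added after seeing the data, 0 members were called within LM2, BrM3 or BoM, 1 in the average and 2 for BrM3 against LM2 in shCtrl. With the GC correction, 2, 3 and 3 were called in LM2, BrM3 and BoM, and 4 for each shCtrl comparison with LM2, while the share of all genes called rose too, to 16.3%, 24.4%, 28.2%, 59.1% and 61.8%. With DESeq2, 2 were called in BoM and 2 for BrM3 against LM2 in shCtrl, as with RLE scaling (2) for the latter. With filterByExpr, 1 was called for BoM against BrM3 in shCtrl. Without both BoM replicate 1 libraries, also added later, 0 were called in BoM and 3 for BrM3 against LM2 in shCtrl. The number of all genes called moved with several of these settings too, so a changed count alone is no result about the members. In LM2, 179 were higher and 577 lower in the main fit, against 66 and 224 with own libraries only. Without the filter they were 259 and 704 of 41236 genes, and with total-count scaling 100 and 965. In BoM, the main fit had 655 and 1297, against 1075 and 1394 with DESeq2. The causes were not tested.

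The replicate numbers were not taken as pairs in the main fit. Same-numbered libraries deviated from their group means with correlations of 0.025 to 0.729 in LM2, -0.177 to 0.547 in BrM3 and 0.144 to 0.564 in BoM. For differently numbered libraries they were -0.632 to 0.478, -0.603 to 0.523 and -0.433 to 0.211. In LM2, BrM3 and BoM, 2, 1 and 3 shCtrl libraries were closest to their own number. These values do not settle whether the numbers mark pairs. KANSL2 passed in each line with a replicate block, at 0.34, 0.32 and 0.29 (adjusted p = 0.017, 0.017 and 0.021). Of all genes, 11.8%, 18.9% and 26.3% were called there. With the replicate block, 2 members were called in BoM (KANSL2 and OGT) and 4 in the average (KANSL2, MCRS1 and PHF20 higher, HCFC1 lower at -0.18), where 26.3% and 46.9% of all genes were called, and with the GC correction and replicate block 2, 3 and 3 in LM2, BrM3 and BoM, beside 28.6%, 37.1% and 39.9% of all genes. The block cannot be applied to the comparisons between lines.

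Leaving out 1 library at a time, the members called ranged from 0 to 1 in LM2, 0 to 2 in BrM3, 0 to 1 in BoM, 1 to 2 in the average, 1 to 3 for BrM3 against LM2, 1 to 3 for BoM against LM2 and 1 to 2 for BoM against BrM3. Calls over all genes changed too. In LM2, 63 were higher and 350 lower without shCtrl replicate 2, against 179 and 577 with all libraries.

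No log2FC that changed sign passed the test. With the GC correction these were, for KAT8, 0.03 in BrM3, 0.08 in BoM and 0.03 in the average, for KANSL3 0.01, 0.04 and 0.04, for HCFC1 in BoM 0.04 and for MCRS1 between BoM and LM2 shCtrl 0.05. Under that correction the median log2FC of all genes with shWDR5 was 0.06 in BrM3, 0.06 in BoM and 0.05 in the average. With the GC correction and replicate block the values that changed sign were 0.03, 0.08 and 0.02 for KAT8, 0.01, 0.03 and 0.04 for KANSL3, and 0.03 for HCFC1 in BoM. With total-count scaling they were -0.02 (LM2) and -0.06 (average) for KANSL1, -0.04 (LM2) and -0.01 (BoM against BrM3 shCtrl) for KANSL3, -0.04 for PHF20 in BoM and -0.01 for OGT in the average. With filterByExpr they were 0.01 for KAT8 and 0.00 for OGT in BrM3 and 0.00 for KANSL3 in the average, without the filter 0.01 for KAT8 in BrM3 and -0.00 for KANSL3 in BoM against BrM3 shCtrl, and without both BoM replicate 1 libraries -0.01 for the latter.

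Leaving out 1 library also changed the sign of values near 0 that never passed the test. Their ranges were, in LM2, -0.03 to 0.15 for KANSL1 and -0.24 to 0.04 for OGT. In BrM3 they were -0.12 to 0.05 for KAT8, -0.11 to 0.02 for KANSL3 and -0.16 to 0.03 for OGT, and in BoM -0.14 to 0.08 for KAT8, -0.04 to 0.19 for KANSL1 and -0.02 to 0.14 for PHF20. KANSL1 ranged from -0.02 to 0.06 in the average and from -0.07 to 0.06 for BoM against BrM3 shCtrl, KANSL3 from -0.01 to 0.06 for the latter, PHF20 from -0.11 to 0.05 for BoM against LM2 shCtrl, and the OGT difference BrM3 minus LM2 from -0.09 to 0.20.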
